A study of Mus musculus with 6 samples.

Results

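Cadherins and protocadherins were measured by RNA-seq in the lateral ganglionic eminence (LGE) of mouse embryos at day 16.5, with and without conditional deletion of Zfhx3, which encodes a transcription factor with many zinc fingers and several homeodomains. The genes were chosen by name: protein-coding genes called Cdh with a number, any Pcdh gene, and Celsr1 to Celsr3. Of 29659 genes in the table, 93 matched, and 90 of them had counts in at least 4 of the 6 libraries. These 90 were 21 cadherins (Cdh), 54 clustered protocadherins (13 Pcdha, 21 Pcdhb and 20 Pcdhg genes) and 15 non-clustered genes (12 Pcdh and 3 Celsr). The first group, Zfhx3-CKO, carried Dlx5/6-Cre and 2 floxed Zfhx3 alleles (Zfhx3F/F). The control group carried Dlx5/6-Cre alone, so both groups share the Cre transgene. Each group had 3 libraries of C57BL/6 mice. Dlx5/6-Cre acts in the lineage of forebrain GABAergic neurons, so other cells of the dissected tissue would keep Zfhx3.

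Cadherins are membrane proteins whose extracellular repeats bind calcium and hold cells together, mostly by pairing with the same or a related cadherin on the neighbouring cell. Classical cadherins of type I and type II link through catenins to the actin cytoskeleton, and neuronal groups of the brain differ in the type II cadherins they express. Clustered protocadherins are made from 3 neighbouring gene clusters, in which most genes have their own variable exon, and the Pcdha and Pcdhg genes splice it to constant exons shared by the cluster; each neuron expresses some of them and so gains a surface identity. Non-clustered protocadherins mostly belong to the delta-1 and delta-2 families, and the Celsr genes, homologues of fly flamingo, act in planar cell polarity and axon guidance.

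The library totals were 18960574 to 20311799 counts in Zfhx3-CKO and 15938590 to 16753355 counts in control, and the 90 genes together took 0.185 to 0.234% of the counts in Zfhx3-CKO and 0.194 to 0.213% in control. The labels do not say whether the libraries came from separate litters or embryos, so p-values measure the spread between these samples. Zfhx3 itself stood at 98.8, 87.4 and 99.4 CPM (counts scaled to library size) in Zfhx3-CKO libraries 1 to 3, against 134, 135 and 101 CPM in control libraries 1 to 3. Its log2 fold change of -0.37 (SE 0.12) had an edgeR adjusted p of 0.091, and counts over the whole gene do not show whether the floxed part was lost. All 15 LGE and striatal neuron markers were detected, and their summed level was 4446 to 4670 CPM in Zfhx3-CKO and 5007 to 5431 CPM in control, with 2 of the 15 higher and 5 lower. Xist had 55947 to 59631 counts in the Zfhx3-CKO libraries and 5 to 9 in the control libraries, while 4 Y-linked genes together had 5 to 8 counts in Zfhx3-CKO and 4939 to 5451 in control. The sex of the tissue and the genotype therefore cannot be told apart in any comparison made here.

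Of these genes 6 changed, and 4 of the 6 were type II cadherins. Cdh22, Cdh24 and Celsr1 were higher in Zfhx3-CKO, while Cdh8, Cdh11 and Pcdhga8 were lower. Of the 90 genes, 84 had enough counts for the test (edgeR's filter, about 10 counts in 3 libraries); 3 were higher, 3 were lower and 78 did not pass an adjusted p of 0.05. The 6 changed genes are 7.14% of the 84, against 7.36% of all 16551 genes tested, so the family as a whole changed about as often as other genes. By direction, 3.87% of all genes were higher and 3.49% lower. The median log2 fold change of the 84 genes was 0.05, against 0.00 for all genes, with 46 positive and 38 negative. The 3 Zfhx3-CKO libraries lay wholly above or wholly below the 3 control libraries for 20 of the 84 genes (23.8%, 10 in each direction), against 31.4% of all genes, of which 15.5% were above and 15.9% below. An unadjusted p under 0.05 was found for 18 of the 84, 12 higher and 6 lower, and for 25.6% of all genes.

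The number of changed genes depended on single libraries, and so did that over all genes. Without control library 1, Cdh22 alone passed (1.7% of all genes passed). Without Zfhx3-CKO library 1 (2.39% of all genes) and without control library 2 (1.76%), Cdh22 and Cdh24 passed and no other member of the family did. Without control library 3 (4.25%) the same 6 genes passed. Without Zfhx3-CKO library 2 there were 9 higher and 3 lower (5.11% of all genes higher, 3.61% lower, 8.71% in all), with Cdh3, Cdh4, Pcdh8, Pcdh9, Pcdha7 and Pcdhga12 added. Without Zfhx3-CKO library 3 there were 3 higher and 7 lower (6.47% of all genes higher, 6.06% lower, 12.5% in all), with Cdh12, Cdh13, Pcdhga3 and Pcdhgb1 added. Without Zfhx3-CKO libraries 1 and 3 there were 3 higher and 9 lower (4.97% of all genes higher, 4.93% lower, 9.9% in all), with Cdh9, Cdh12, Cdh13, Pcdh7, Pcdhga1 and Pcdhga2 added. Genes in these additions were named after their values were seen. The 6 genes were among those called in each of the last 3 fits; in the last of them the lone Zfhx3-CKO library is assumed to vary like the controls. Of all genes, 1.89% passed with a replicate block, 6.27% without the low-count filter, 10.9% with DESeq2, 7.3% with RLE factors, 9.1% with a stricter filter, 6.74% with limma on FPKM and 7.26% without X and Y genes.

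**Figure D1:**
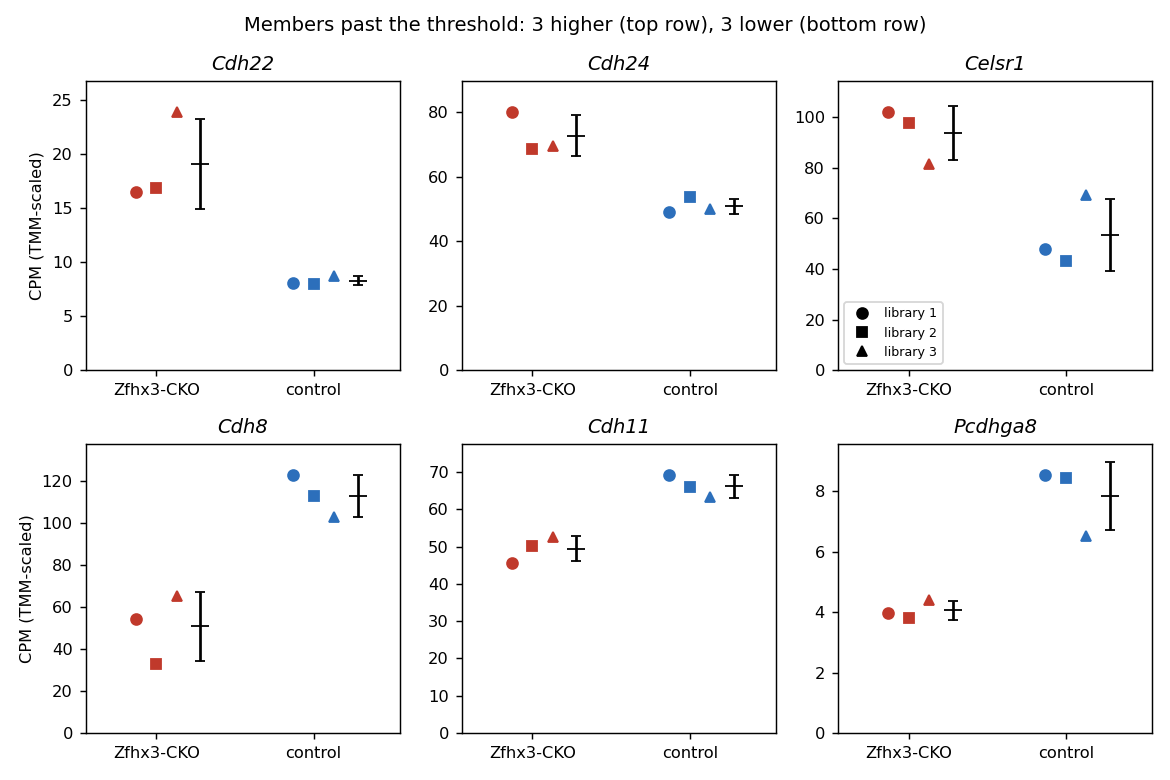
CPM of the 6 changed genes in each library, with Zfhx3-CKO at the left of each panel and control at the right; points are libraries, their shapes give the library number, and bars give the mean and SD of 3 libraries. In all 6 panels the groups do not overlap, and Cdh8 has its lowest point, 32.7 CPM, in Zfhx3-CKO library 2.

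Type II cadherins, classical cadherins that tell many neuron groups apart, gave 4 of the 6 calls. Of 13 type II genes 12 were tested, 2 were higher, 2 were lower and 8 did not pass, so 33.3% of those tested were called, against 7.36% of all genes. Their median log2 fold change was 0.26. The summed level of the 13 genes was 273, 240 and 289 CPM in Zfhx3-CKO, against 318, 312 and 285 CPM in control, and these sums overlapped.

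Cdh22, a type II cadherin of the brain, gave the smallest adjusted p of the family. It had 16.5, 16.9 and 23.9 CPM in the Zfhx3-CKO libraries, against 8.07, 8.01 and 8.74 CPM in the control libraries. Every Zfhx3-CKO library was above every control library, and the highest was library 3. The means were 19.1 ± 4.2 CPM in Zfhx3-CKO and 8.27 ± 0.406 CPM in control (SD, n = 3 each), a 2.31-fold difference (log2 fold change 1.21, SE 0.17, edgeR adjusted p = 0.00584). In the fits tried with other settings or fewer libraries the call held in 14 of 14, with an adjusted p of at most 0.0467. In the authors' deposited table the family members with an adjusted p under 0.05 are the 6 changed genes, Cdh12 and Pcdh8. That table rests on the same libraries. The share of all its genes under 0.05 was not counted, so no comparison is drawn. For Cdh22 the authors' deposited table gives a log2 fold change of 1.02 (adjusted p = 3.47e-08), and it is the 1 member among the 122 genes marked significant there. Cdh8 is not marked, with a deposited log2 fold change of -0.96 (authors' adjusted p = 4.14e-07), so the mark does not follow that p alone. The gene lies on the minus strand of chromosome 2, at 165111507 to 165234853 (GRCm38).

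Cdh24, another type II cadherin, had 80.1, 68.7 and 69.5 CPM in Zfhx3-CKO, against 49.2, 53.6 and 49.9 CPM in control. The groups were well apart, the lowest Zfhx3-CKO library being above the highest control library. The means were 72.7 ± 6.36 CPM in Zfhx3-CKO and 50.9 ± 2.35 CPM in control (SD, n = 3 each), a 1.43-fold difference (log2 fold change 0.51, SE 0.08, edgeR adjusted p = 0.0107). The call was lost without control library 1 (edgeR adjusted p = 0.0714). Per length this is 26.6 ± 2.51 FPKM (fragments scaled to gene length and library size) in Zfhx3-CKO and 18.7 ± 0.788 FPKM in control. The length behind these FPKM values is 2728 bases, shorter than the 3489 exonic bases of Cdh24 in GENCODE vM21. Cdh24 lies on the minus strand of chromosome 14, at 54631992 to 54641364.

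Cdh8, a type II cadherin that marks restricted regions and circuits of the forebrain, was the most strongly lowered gene of the family that passed the test. It had 54.4, 32.7 and 65 CPM in Zfhx3-CKO, against 123, 113 and 103 CPM in control. All 3 Zfhx3-CKO libraries were below all 3 control libraries, and library 2 was the lowest. The means were 50.7 ± 16.5 CPM in Zfhx3-CKO and 113 ± 10.2 CPM in control (SD, n = 3 each), 2.23-fold lower (log2 fold change -1.15, SE 0.21, edgeR adjusted p = 0.0171). In Zfhx3-CKO library 2 alone, without libraries 1 and 3, the log2 fold change was -1.79. The call was lost without Zfhx3-CKO library 1, control library 1 or control library 2, with edgeR adjusted p of 0.063, 0.0956 and 0.0814. In whole tissue, fewer cells of a type and less RNA per cell cannot be told apart, which holds for every level given here. Cdh8 lies on the minus strand of chromosome 8, at 99024471 to 99416471.

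Cdh11, a type II cadherin of mesenchyme and of neurons, lies on the same chromosome, at 102632095 to 102785642 on the minus strand. It had 45.7, 50.2 and 52.5 CPM in Zfhx3-CKO, against 69.3, 65.9 and 63.3 CPM in control. The groups were separate, with little spread in either. The means were 49.5 ± 3.46 CPM in Zfhx3-CKO and 66.2 ± 3.03 CPM in control (SD, n = 3 each), 1.34-fold lower (log2 fold change -0.42, SE 0.08, edgeR adjusted p = 0.019). Meningeal fibroblast markers summed to 26.1, 85.5 and 30.6 CPM in Zfhx3-CKO and 29.3, 31 and 36.3 CPM in control, with none of the 9 at 0 in all 6 libraries and 0 of 6 tested called by edgeR or DESeq2 (2 at an unadjusted p under 0.05), and their part in the Cdh11 difference was not tested. The call was lost without Zfhx3-CKO library 1, control library 1 or control library 2, with adjusted p of 0.0864, 0.11 and 0.101.

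The sequence before the start of Cdh22, Cdh24 and Cdh8 is shown because these 3 of the 6 changed genes have a promoter window in the RefSeq table used (23 of the 90 genes have one); Cdh11, Celsr1 and Pcdhga8 are named only. Sequences are from RefSeq, GRCm38.p6, read 5′ to 3′ on the minus strand, and end at the start of the gene in the deposited table. Capitals mark the GC box GGGCGG, searched on both strands. For Cdh22, 116 of the 250 bases of the window fall inside the deposited gene and are left out.
Cdh22, chr2:165234854-165234987: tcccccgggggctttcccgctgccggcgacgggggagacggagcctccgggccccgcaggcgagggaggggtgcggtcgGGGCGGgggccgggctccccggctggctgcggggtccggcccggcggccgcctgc
Cdh24, chr14:54641365-54641614: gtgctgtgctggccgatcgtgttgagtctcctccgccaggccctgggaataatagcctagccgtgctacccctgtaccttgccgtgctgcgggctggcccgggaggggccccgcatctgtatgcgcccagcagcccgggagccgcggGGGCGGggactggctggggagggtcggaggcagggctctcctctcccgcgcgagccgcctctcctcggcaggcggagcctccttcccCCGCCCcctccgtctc
Cdh8, chr8:99416472-99416721: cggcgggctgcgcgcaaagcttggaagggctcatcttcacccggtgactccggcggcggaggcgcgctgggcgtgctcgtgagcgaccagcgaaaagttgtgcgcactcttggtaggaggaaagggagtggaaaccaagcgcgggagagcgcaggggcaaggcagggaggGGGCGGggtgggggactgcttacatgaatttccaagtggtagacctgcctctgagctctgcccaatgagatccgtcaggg
The windows of 250 bases hold 77.6% G or C in Cdh22, 72.8% in Cdh24 and 64.4% in Cdh8, against a median of 52.4% over all windows. The GC box occurs 1 time in Cdh22, 2 times in Cdh24 and 1 time in Cdh8, and at least 1 is found in 32.7% of the 32851 windows of that length. The letters CCCNNGGG, the core of the motif known for EBF factors, match 3 times in Cdh22, at overlapping positions, and 0 times in Cdh24 and Cdh8; 11.8% of windows hold a match. TAATTA, a core bound by many homeodomain proteins, was in none of the 3 windows and in 4.84% of all. A match in these letters is a description of the sequence and not a bound site.

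Of the 12 type II genes tested, 9 had an unadjusted p under 0.05, 5 higher and 4 lower, against 25.6% of all genes. Cdh12, which did not pass the adjustment, had the largest negative fold change in the family. It had 0.931, 1.06 and 2.87 CPM in Zfhx3-CKO, against 5.92, 5.93 and 3.41 CPM in control. The groups did not overlap, but Zfhx3-CKO library 3 and control library 3 were near each other. The log2 fold change of -1.65 (SE 0.43) had an edgeR adjusted p of 0.0544, and DESeq2 gave an adjusted p of 0.0045. With single libraries left out, the log2 fold change ran from -2.35 to -1.36 and edgeR's adjusted p was 0.00377 without Zfhx3-CKO library 3 and 0.0736 to 0.197 in the other 5 fits. Cdh7 had 19.7, 19.4 and 22.6 CPM in Zfhx3-CKO, against 17.3, 16.8 and 12.6 CPM in control, and did not pass (log2 fold change 0.40, adjusted p = 0.125).

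The type I cadherins gave no call: 4 of 5 were tested and 0 passed with edgeR. At an unadjusted p under 0.05, 1 of the 4 passed, against 25.6% of all genes, and DESeq2 gave 0 calls as well. Cdh2, N-cadherin, the main cadherin of neural tissue, was the most abundant gene of the whole family. It had 402, 364 and 374 CPM in Zfhx3-CKO, against 405, 407 and 390 CPM in control, so the groups overlapped. Its log2 fold change was -0.08 (SE 0.06, edgeR adjusted p = 0.499). Cdh4, R-cadherin, had 96.4, 67.9 and 118 CPM in Zfhx3-CKO, against 76.7, 68.1 and 64.6 CPM in control. Library 2 of Zfhx3-CKO lay among the controls, and the log2 fold change of 0.43 (SE 0.18) did not pass (adjusted p = 0.167); without Zfhx3-CKO library 2 it was 0.63 with an adjusted p of 0.0105, and without libraries 1 and 3 it was -0.04. With any other single library left out the adjusted p was 0.269 to 0.351.

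Of the atypical cadherins Cdh13, Cdh17 and Cdh23, the first and the last were tested and neither passed. Cdh23, known from the tip links of hair cells, was near the lower limit of measurement, with 0.931, 0.953 and 1.18 CPM in Zfhx3-CKO and 0.418, 0.568 and 0.299 CPM in control (log2 fold change 1.24, edgeR adjusted p = 0.0657). Cdh13, T-cadherin, which is anchored in the membrane by a lipid, is given because its libraries differ widely, a choice made after its values were seen. It had 24.9, 16.1 and 48.4 CPM in Zfhx3-CKO, against 43.7, 43.6 and 37.3 CPM in control. Zfhx3-CKO libraries 1 and 2 lay below all controls and library 3 above them, with a log2 fold change of -0.48 (SE 0.33, edgeR adjusted p = 0.397).

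**Figure D2:**
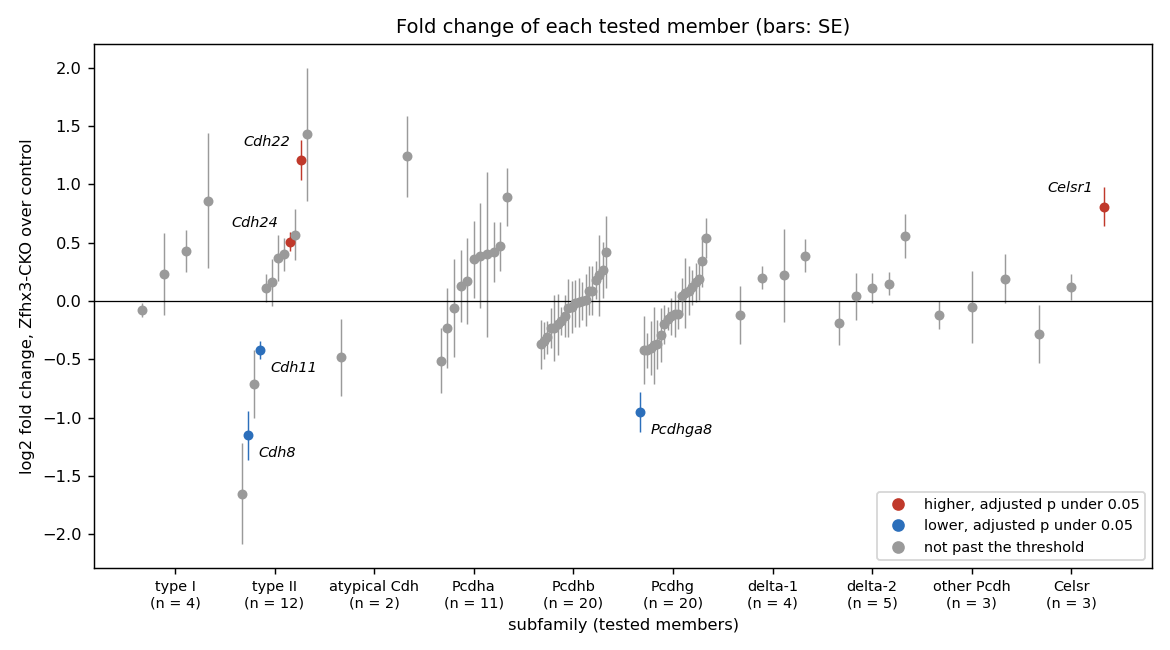
Log2 fold change of Zfhx3-CKO over control for each of the 84 tested genes, by subfamily, with bars for the SE; colours mark genes higher or lower at an edgeR adjusted p under 0.05. The 4 coloured type II points run from -1.15 to 1.21, and the Pcdhb points, of which 0 passed, lie between -0.37 and 0.42.

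Of the 3 Celsr genes, Celsr1 was higher and the other two did not pass. Celsr1, whose product acts in planar polarity and is known from dividing neural progenitors, had 102, 97.5 and 81.6 CPM in Zfhx3-CKO, against 47.9, 43 and 69.4 CPM in control. The groups did not overlap, with control library 3 the nearest to the Zfhx3-CKO libraries. The means were 93.6 ± 10.6 CPM in Zfhx3-CKO and 53.4 ± 14.1 CPM in control (SD, n = 3 each), a 1.75-fold difference (log2 fold change 0.81, SE 0.17, edgeR adjusted p = 0.0285). The call was lost without Zfhx3-CKO library 1, control library 1 or control library 2, with adjusted p of 0.104, 0.133 and 0.112. Celsr1 lies on the minus strand of chromosome 15, at 85898758 to 86033777.

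Of the 9 LGE progenitor markers, 2 were higher (Mki67 and Top2a), 0 lower and 7 did not pass. The sum of the 9 was 4327, 4627 and 3466 CPM in Zfhx3-CKO, against 3294, 3318 and 3704 CPM in control, and these sums overlapped. Library 3 was the lowest of Zfhx3-CKO and the highest of control both in Celsr1 and in the sum. The highest of Zfhx3-CKO was library 1 in Celsr1 and library 2 in the sum. Control library 3 was above Zfhx3-CKO library 3 in the sum (3704 against 3466 CPM) and below it in Celsr1 (69.4 against 81.6 CPM). The part of these markers in the Celsr1 difference was not tested.

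Celsr2, the most abundant of the 3, had 256, 242 and 300 CPM in Zfhx3-CKO, against 243, 274 and 219 CPM in control (log2 fold change 0.12, SE 0.11, edgeR adjusted p = 0.543). Celsr3, which is needed for forebrain axon tracts, had 17.5, 27.4 and 18.3 CPM in Zfhx3-CKO, against 17.4, 25.4 and 33.8 CPM in control (log2 fold change -0.28, SE 0.25, adjusted p = 0.536). The groups overlapped for both genes.

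No non-clustered Pcdh gene passed. The median log2 fold change was 0.21 over the 4 delta-1 genes, 0.11 over the 5 delta-2 genes and -0.05 over the 3 others. With edgeR 0 of the 12 were called. An unadjusted p under 0.05 was found for 2 of the 12, Pcdh8 and Pcdh9, against 25.6% of all genes. Pcdh8, also called arcadlin, takes part in the removal of N-cadherin from synapses. It had 49.5, 32.7 and 57.5 CPM in Zfhx3-CKO, against 28.6, 31.9 and 34.6 CPM in control. Zfhx3-CKO libraries 1 and 3 were above all controls and library 2 among them. The log2 fold change of 0.56 (SE 0.19) did not pass (edgeR adjusted p = 0.108), and DESeq2 gave 0.0358. With single libraries left out, edgeR's adjusted p was 0.00514 without Zfhx3-CKO library 2 and 0.159 to 0.306 in the other 5 fits. Pcdh8 shares 9.61% of its exonic length with Gm9748 on the opposite strand, and reads of the 2 genes cannot be told apart without strand.

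Pcdh9 had 23.7, 19.6 and 27.3 CPM in Zfhx3-CKO, against 17.2, 19.4 and 17.3 CPM in control, and did not pass (log2 fold change 0.39, adjusted p = 0.122). Pcdh1 and Pcdh10 were the most abundant of the non-clustered Pcdh genes. Pcdh1 had 124, 113 and 150 CPM in Zfhx3-CKO, against 117, 112 and 108 CPM in control (log2 fold change 0.20, adjusted p = 0.254). Pcdh10, which in mice is needed for axon paths through the ventral forebrain, had 194, 170 and 247 CPM in Zfhx3-CKO, against 197, 192 and 174 CPM in control (log2 fold change 0.11, adjusted p = 0.629). The groups overlapped for both.

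Pcdh11x and Pcdh19 are X-linked. Pcdh19, whose human counterpart is mutated in an epilepsy of girls, had 32.7, 26.2 and 46.9 CPM in Zfhx3-CKO, against 35.8, 37.3 and 29.6 CPM in control (log2 fold change 0.04, SE 0.20, edgeR adjusted p = 0.917). Pcdh11x had 10.8, 9.11 and 26.4 CPM in Zfhx3-CKO, against 17.6, 12.7 and 9.22 CPM in control (log2 fold change 0.22, SE 0.40, adjusted p = 0.772). In both genes the highest library of all was Zfhx3-CKO library 3, and the groups overlapped. A fit without X and Y genes left the 6 calls the same. None of the 6 lies on X or Y, so this fit cannot separate sex from genotype for them.

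Of the 51 clustered protocadherins tested, 0 were higher and 1 was lower, or 1.96% against 7.36% of all genes tested. Their levels are low (median 1.08 FPKM over all 54), and the share was not compared with that of genes at like levels. At an unadjusted p under 0.05 there were 2 higher and 2 lower of the 51, against 25.6% of all genes in both directions. DESeq2 also called Pcdhga8 and no other clustered gene. Their median log2 fold change was -0.02. The summed Pcdha counts came to 43, 33.9 and 63.4 CPM in Zfhx3-CKO, against 41.8, 44.3 and 33.2 CPM in control. The Pcdhb sum was 112, 106 and 133 CPM in Zfhx3-CKO, against 136, 130 and 115 CPM in control. The Pcdhg sum was 210, 178 and 232 CPM in Zfhx3-CKO, against 230, 228 and 197 CPM in control. The groups overlapped in all 3 clusters, with library 2 lowest and library 3 highest among the Zfhx3-CKO libraries each time. The log2 ratios of the mean sums were 0.23 for Pcdha, -0.12 for Pcdhb and -0.08 for Pcdhg; in Zfhx3-CKO library 2 alone, without libraries 1 and 3, they were -0.23, -0.26 and -0.30.

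Counts of single Pcdha and Pcdhg genes carry an added uncertainty. In GENCODE vM21 a median of 53.6% of the exonic length of a Pcdha gene and 45.15% of that of a Pcdhg gene overlaps other genes, mostly the constant exons, against a median of 0% for Pcdhb. The lengths implied by the FPKM values include those exons (median 5347 bases for Pcdha), yet Pcdha4 held only 1, 1 and 5 counts in Zfhx3-CKO and 2, 6 and 4 in control, so constant-exon reads were not counted in full to each gene. The sources used here do not say how they were assigned.

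Pcdhga8 was the 1 clustered gene that passed. It had 3.97, 3.81 and 4.41 CPM in Zfhx3-CKO, against 8.55, 8.45 and 6.53 CPM in control. The groups were separate, and the spread within Zfhx3-CKO was small. The means were 4.06 ± 0.309 CPM in Zfhx3-CKO and 7.84 ± 1.14 CPM in control (SD, n = 3 each), 1.93-fold lower (log2 fold change -0.95, SE 0.17, edgeR adjusted p = 0.0168). It made up 1.89 to 2.14% of Pcdhg counts in Zfhx3-CKO and 3.31 to 3.71% in control. Since 55.9% of its exonic length is shared with other genes, the value is uncertain, and the call was lost without Zfhx3-CKO library 1, control library 1 or control library 2, with adjusted p of 0.0741, 0.0981 and 0.0935. It lies on the plus strand of chromosome 18, at 37725706 to 37841873.

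Other Pcdhga genes had values on both sides of the control level. Pcdhga12 had 7.6, 5.83 and 7.59 CPM in Zfhx3-CKO, against 4.78, 5.17 and 4.55 CPM in control, a separation in the other direction that did not pass (log2 fold change 0.54, edgeR adjusted p = 0.0944). Pcdhga4 had 5.88, 4.98 and 6.15 CPM in Zfhx3-CKO, against 7.83, 7.32 and 7.66 CPM in control (log2 fold change -0.42, adjusted p = 0.125). Over the 11 Pcdhga genes the median log2 fold change was -0.20, with 4 positive and 7 negative, and over the 6 Pcdhgb genes it was -0.02. Pcdhgb6, the most abundant Pcdhgb gene, had 23.1, 12.6 and 16.4 CPM in Zfhx3-CKO, against 13.7, 15.6 and 11.7 CPM in control (log2 fold change 0.34, adjusted p = 0.361).

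The C-type genes, whose use does not vary between neurons in the way of the other variable exons, took much of the Pcdhg counts. Pcdhgc3 had 46.3, 45.1 and 56.2 CPM in Zfhx3-CKO, against 57.9, 54.4 and 51.5 CPM in control (log2 fold change -0.15, adjusted p = 0.388), and held 22.1 to 25.4% of Pcdhg counts in Zfhx3-CKO and 23.9 to 26.1% in control. Pcdhgc4, which in mice is needed for the survival of cortical interneurons, had 27.8, 20.2 and 32.1 CPM in Zfhx3-CKO, against 26.1, 24.5 and 21.2 CPM in control (log2 fold change 0.16, adjusted p = 0.597). Its share of the Pcdhg counts was 11.4 to 13.8% in Zfhx3-CKO and 10.7 to 11.3% in control.

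Among Pcdha genes, Pcdha7 came nearest to the threshold, with 3.09, 2.33 and 3.74 CPM in Zfhx3-CKO and 1.43, 1.77 and 1.74 CPM in control (log2 fold change 0.89, SE 0.25, edgeR adjusted p = 0.0684). Its groups did not overlap, and 59.9% of its exonic length is shared. Pcdhac2, the most abundant Pcdha gene, and Pcdha3 are given after their values were seen. Pcdhac2, which is the isoform used by serotonergic neurons, had 14.2, 11.9 and 21.9 CPM in Zfhx3-CKO, against 11.9, 11.4 and 11.4 CPM in control (log2 fold change 0.47, adjusted p = 0.21). Pcdha3 made up 7.97 to 8.9% of Pcdha counts in Zfhx3-CKO and 11.3 to 16.4% in control, although its own log2 fold change of -0.51 did not pass (adjusted p = 0.296).

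The Pcdhb genes, which have no constant exon, gave 0 calls of 20 with edgeR and with DESeq2. Of the 20, 0 had an unadjusted p under 0.05, against 25.6% of all genes. Their median log2 fold change was -0.03. Pcdhb17, the most abundant, had 13.3, 16.6 and 17.8 CPM in Zfhx3-CKO, against 19.8, 21.3 and 18 CPM in control. Its groups did not overlap, though Zfhx3-CKO library 3 and control library 3 nearly met, and the log2 fold change was -0.31 (SE 0.14, adjusted p = 0.204).

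**Figure D3:**
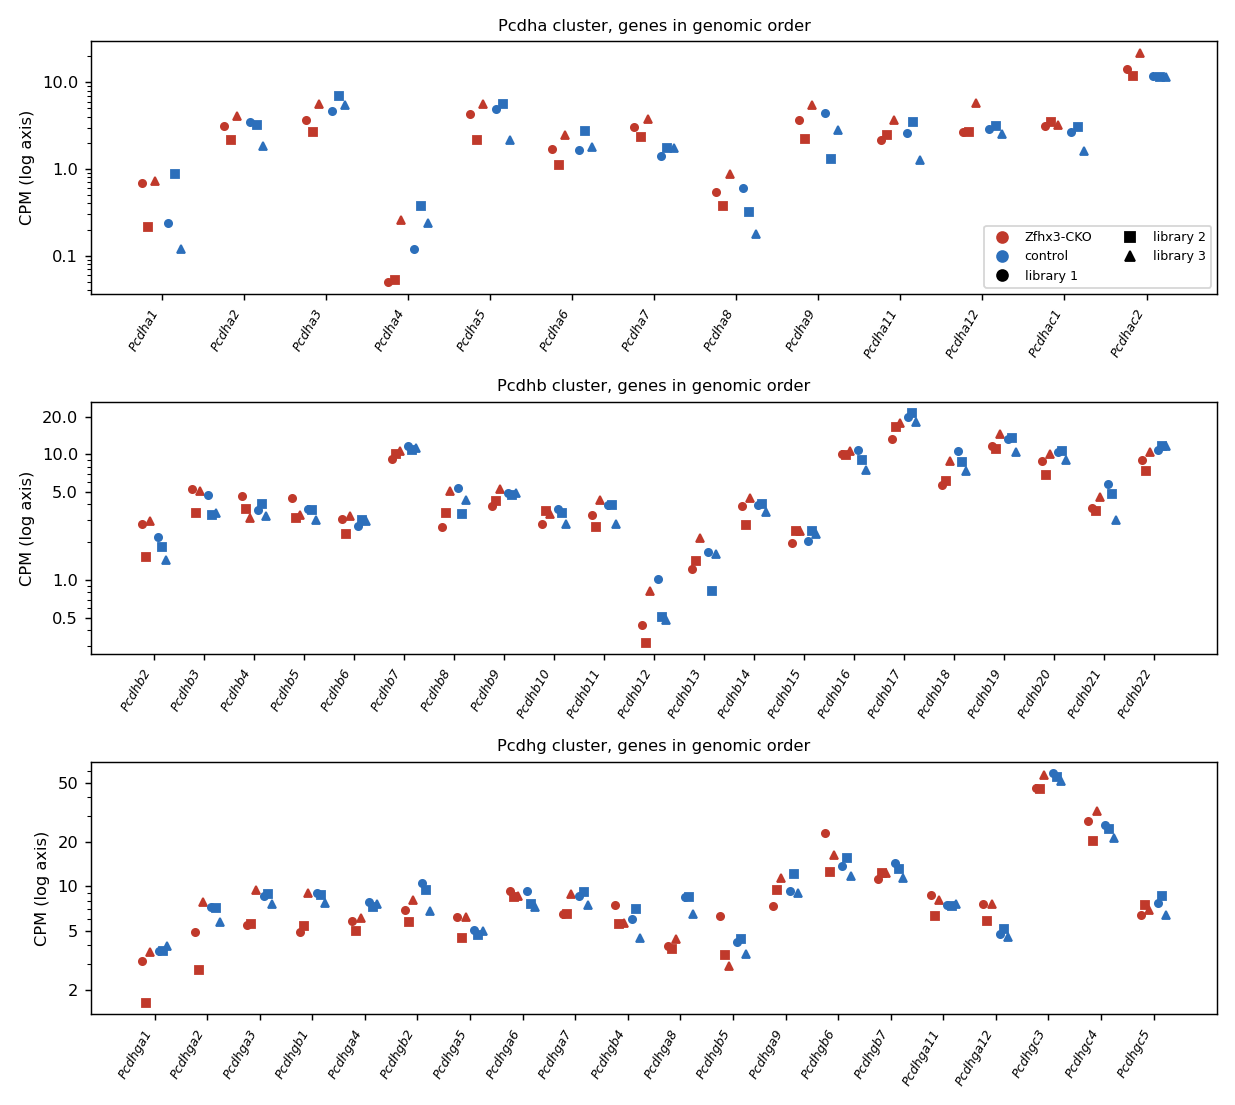
CPM on a log axis of every clustered protocadherin among the 90 genes in each library, in genomic order within the Pcdha, Pcdhb and Pcdhg clusters; red points are Zfhx3-CKO, blue points control, and shapes give the library number. Pcdhga8, which passed the test, and Pcdhb7, Pcdhb17, Pcdhb22, Pcdhga1 and Pcdhga4, which did not, are the 6 genes with all red points below all blue points. In 4 others, Pcdha7, Pcdhac1, Pcdhac2 and Pcdhga12, all red points lie above. Together these are 10 of the 51 tested (19.6%), against 31.4% of all genes, of which 15.5% were above and 15.9% below. The C-type genes at the right end of the Pcdhg cluster reach 56.2 CPM in Zfhx3-CKO and 57.9 CPM in control.

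The Zfhx3-CKO libraries differed among themselves across the family. Library 2 was the lowest of the 3 for 53 of the 84 genes (63.1%, against 35% of all genes), and library 3 was the highest for 60 (71.4%, against 37.3% of all genes). Relative to the control mean, the median log2 difference over the 84 genes was -0.03, -0.17 and 0.23 in Zfhx3-CKO libraries 1 to 3, and 0.05, 0.08 and -0.15 in control libraries 1 to 3. These values follow 1 tissue sample each and are not replicates of a library effect.

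The summed cortical excitatory neuron markers varied in the same order among the Zfhx3-CKO libraries. Their 11 genes summed to 205, 52.9 and 290 CPM in Zfhx3-CKO libraries 1 to 3, against 54.1, 56.7 and 57.2 CPM in control, with no marker at 0 in all 6 libraries. Of 10 tested, 1 passed, Bhlhe22, which was higher, and all 10 had an unadjusted p under 0.05. Taken singly, Eomes, Neurog2, Emx1 and Slc17a6 were highest in Zfhx3-CKO library 1 and not in library 3. Like the marker sum, Pcdh8, Cdh4, Cdh13, Pcdh10 and Pcdh11x were highest in library 3 and lowest in library 2 of Zfhx3-CKO. The same order was seen in Pcdh1, Pcdh9, Pcdh19 and further genes of the family. It was also seen in Cdh8, which passed as lower. The part of cortical excitatory cells in these genes was not tested. Without libraries 1 and 3 the log2 fold change was 0.05 for Pcdh8, -0.15 for Pcdh10 and -1.79 for Cdh8. That fit leaves only library 2 of Zfhx3-CKO, where these genes were already seen to be lowest. Its lower values therefore follow from that order and are no test of a cell type.

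Markers of the medial ganglionic eminence, the neighbouring region, summed to 327, 437 and 476 CPM in Zfhx3-CKO and 260, 293 and 293 CPM in control, and 3 of 7 were higher (Nkx2-1, Lhx8 and Nkx6-2). Oligodendrocyte lineage markers summed to 133, 129 and 165 CPM in Zfhx3-CKO and 105, 116 and 117 CPM in control, with 1 of 5 higher. Endothelial and pericyte markers summed to 299, 319 and 377 CPM in Zfhx3-CKO and 308, 292 and 296 CPM in control, and choroid plexus markers to 31.6, 33.6 and 27.4 CPM in Zfhx3-CKO and 24.3, 23.7 and 35.1 CPM in control, with none passing in either list by edgeR (3 and 1 at an unadjusted p under 0.05, 1 and 0 by DESeq2). Microglial markers summed to 281, 304 and 191 CPM in Zfhx3-CKO and 280, 271 and 394 CPM in control, with 1 of 7 lower. No marker of these lists was at 0 in all 6 libraries, and the part of these cell types in the cadherin differences was not tested.

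**Figure D4:**
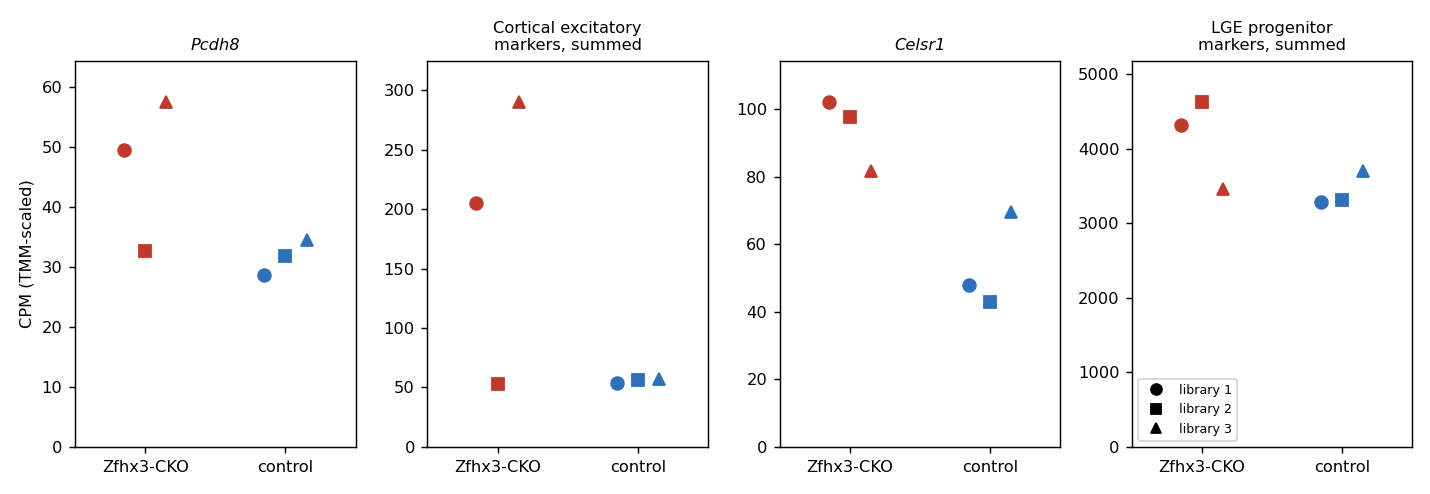
CPM of Pcdh8, the summed cortical excitatory markers, Celsr1 and the summed LGE progenitor markers in each library, Zfhx3-CKO left and control right, with shapes for the library number. Pcdh8 and the cortical markers are high in Zfhx3-CKO libraries 1 and 3 and near the control values in library 2, while Celsr1 and the progenitor markers are lowest in library 3 of Zfhx3-CKO. Within Zfhx3-CKO, Celsr1 is highest in library 1 and the progenitor sum in library 2.

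The levels of the family spanned a wide range. Per length, over all 6 libraries, Cdh2 averaged 48.4 FPKM, ahead of Cdh24 with 22.6, Celsr2 with 22.2, Pcdh1 with 13.7, Pcdh10 with 12.3, Cdh4 with 11.3 and Cdh8 with 10.6 FPKM. No order is drawn between Cdh24 and Celsr2, since the FPKM of Cdh24 rests on the shorter length given above. Among clustered genes Pcdhgc3 was the highest at 9.42 FPKM. The median gene stood at 1.22 FPKM among the Cdh genes, 1.08 among the clustered and 3.31 among the non-clustered ones. Cdh22 averaged 5.14 ± 1.1 FPKM in Zfhx3-CKO and 2.24 ± 0.123 FPKM in control, and Cdh8 averaged 6.53 ± 2.11 FPKM in Zfhx3-CKO and 14.6 ± 1.27 FPKM in control (SD, n = 3 each).

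**Figure D5:**
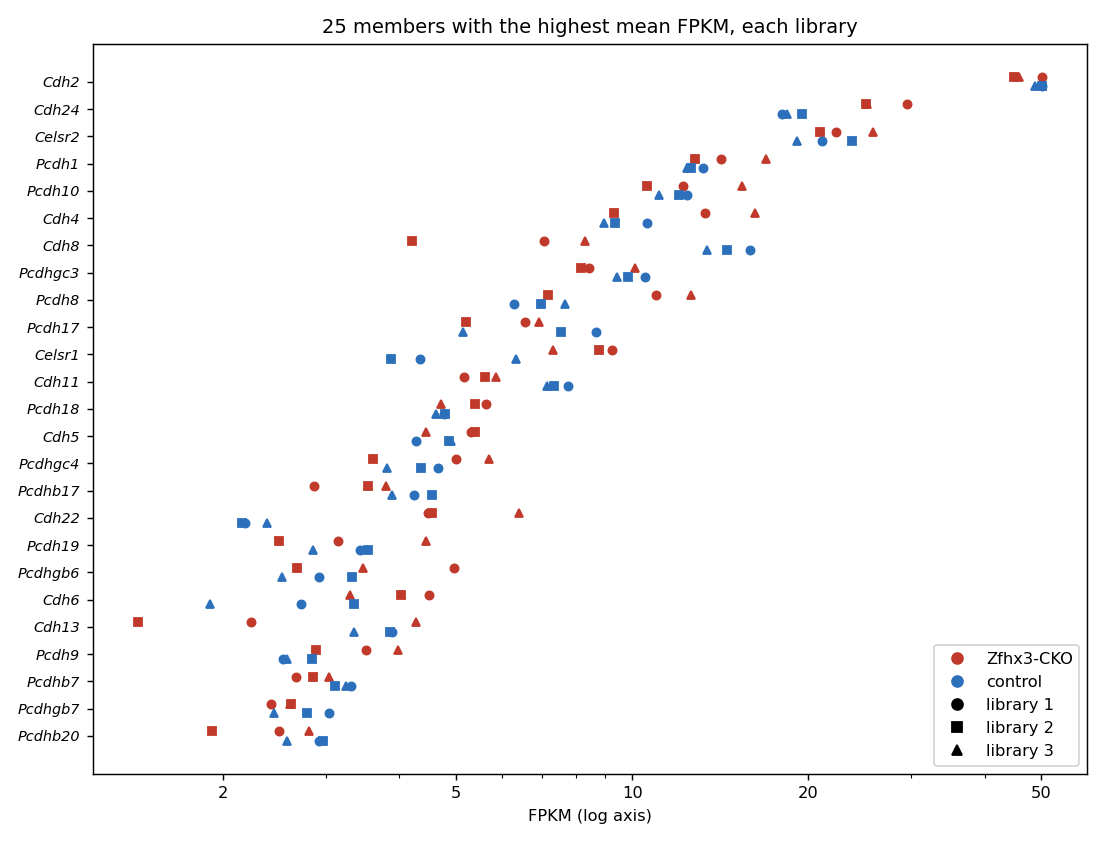
FPKM on a log axis of the 25 genes with the highest mean FPKM, each library as a point, with Zfhx3-CKO in red, control in blue and shapes for the library number. Cdh2 is at the top with overlapping groups, and Cdh24 and Cdh8 are separated in opposite directions.

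Of the 90 genes, 6 had too few counts for the test. Cdh17 had 3, 2 and 1 counts in Zfhx3-CKO and 2, 2 and 2 in control. Pcdha8 had 11, 7 and 17 counts in Zfhx3-CKO and 10, 5 and 3 in control, Pcdhb12 had 9, 6 and 16 in Zfhx3-CKO and 17, 8 and 8 in control, and Pcdha4 is given above. Cdh3, P-cadherin, had 16, 0 and 19 counts in Zfhx3-CKO and 2, 1 and 1 in control, so it had counts in 5 libraries. It was high in the libraries where the cortical markers were high, and a link between them was not tested. Cdh19 had 5, 2 and 0 counts in Zfhx3-CKO and 0, 1 and 3 in control, and was just inside the minimum of 4 libraries. Just outside it, Cdh26 had counts in 3 libraries, with 1, 0 and 2 in Zfhx3-CKO and 1, 0 and 0 in control. Pcdhb1 and a second Pcdha11 gene ID had counts in 1 library each.

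The partners of these proteins were counted in 5 lists of 74 genes, of which 73 were found and 65 tested. In all 3 were higher and 3 lower, or 9.23% of those tested, against 7.36% of all genes. This count was 0 to 8 when single libraries were left out, and came to 1 without Zfhx3-CKO library 1. Leaving out control libraries 1, 2 and 3 gave 0, 1 and 3.

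Among 11 catenins and other cadherin interactors tested, 1 was higher, 1 lower and 9 did not pass. Ctnnb1, beta-catenin, which binds the cadherin tail and also carries the Wnt signal, had 952, 937 and 882 CPM in Zfhx3-CKO, against 707, 734 and 759 CPM in control. Its log2 fold change was 0.33 (SE 0.06, edgeR adjusted p = 0.0189). Ctnnd1, p120-catenin, which keeps classical cadherins at the membrane, had 14.8, 12.7 and 14.4 CPM in Zfhx3-CKO, against 24.4, 20.9 and 22.3 CPM in control. It was lower by a log2 fold change that came to -0.69 (SE 0.12, edgeR adjusted p = 0.0118). The groups did not overlap for either.

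Among 12 planar polarity genes, 2 were higher, 1 lower and 9 did not pass. Fjx1, the homologue of fly four-jointed, had 63.4, 55.4 and 69.8 CPM in Zfhx3-CKO, against 38.7, 35.6 and 46.9 CPM in control (log2 fold change 0.64, SE 0.12, edgeR adjusted p = 0.0209). Dvl1, a dishevelled protein, had 147, 145 and 151 CPM in Zfhx3-CKO, against 121, 122 and 125 CPM in control (log2 fold change 0.27, adjusted p = 0.0324). Ankrd6, homologue of fly diego, had 95.5, 112 and 86.2 CPM in Zfhx3-CKO, against 133, 132 and 129 CPM in control, and was lower (log2 fold change -0.43, adjusted p = 0.0337).

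Among 16 protocadherin effectors and proteases, 1 was lower and 15 did not pass; Abi2, a subunit of the WAVE complex that reshapes actin, had 166, 165 and 185 CPM in Zfhx3-CKO, against 228, 213 and 209 CPM in control (log2 fold change -0.33, SE 0.07, edgeR adjusted p = 0.0317). The 15 regulators of the clustered genes, such as the cohesin and CTCF machinery, gave 0 calls with edgeR and with DESeq2 (1 at an unadjusted p under 0.05), and their median log2 fold change was 0.07. The 11 tested genes of other cadherin-repeat families gave 0 calls with both tools as well (2 at an unadjusted p under 0.05). Such a p was found for 25.6% of all genes. The 11 log2 fold changes were all positive, with a median of 0.25 against 0.00 for all genes. Among the Zfhx3-CKO libraries, library 3 was the highest for all of them but Fat1 and Dchs1.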

How the data were processed

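Total RNA of LGE tissue was sequenced from 3 Zfhx3-CKO and 3 control libraries, made per the labels' protocols with an Illumina TruSeq RNA kit from 1 ug of RNA, which leaves the strand of a read unknown. Tools listed in the submitters' processing notes are bcl2fastq (2.17.1.14), HISAT2, edgeR and StringTie, with builds mm10 and GRCm38.p4 and no role for any of them. The deposited counts are whole numbers per gene without normalisation, per the file headers. The deposited FPKM values had been scaled to length and depth when the authors made them. Mean signal over all libraries, deposited as size-factor-normalised counts, was not used. The deposited log2 fold changes and the deposited p-values are the authors' own, from a test that the sources used here do not name. Library columns were tied to samples by group word and number, and a shorter table of 3726 genes with titled columns has the same values.

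Counts were tested in R 4.3.3 with edgeR 4.0.16 (quasi-likelihood test, TMM factors 0.992 to 1.008, filterByExpr with a minimum count of 10, group as the only term) over all 16551 genes that passed the filter (13108 did not), with Benjamini-Hochberg adjustment at 0.05. Tests on simulated counts recovered large known changes before use, and their recovery at the smaller fold sizes called here is not given. CPM are counts over the TMM-scaled total, and the SE comes from the F statistic. With 3 libraries against 3, an exact permutation test of a single value cannot go below 0.1, so none is given. Alternatives were a replicate block, RLE factors, no filter, a filter of 5 CPM in 3 libraries, DESeq2 1.42.0, limma 3.58.1 on log2(FPKM + 1), each library left out, and fits without Zfhx3-CKO libraries 1 and 3 or without X and Y genes. The genes, lists and settings were chosen with earlier results of these data known. Genes named are those past the threshold, the 4 most abundant and the 3 smallest p not passing of each class, Celsr and X-linked genes, and up to 4 past the threshold of a partner list; others are said to be chosen after their values were seen. Of 153 list genes 152 were found. Shared exons were computed from GENCODE vM21 and promoters are RefSeq windows.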

Additional observations from a re-analysis of the deposited data

How the results depend on the processing

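The 3 higher and 3 lower genes were the same with RLE factors, with the stricter filter, with limma on FPKM and without X and Y genes. With a replicate block 1 was higher and 1 lower, and 1 partner gene passed. Cdh24, Cdh11 and Celsr1 then had log2 fold changes of 0.51, -0.42 and 0.83, with edgeR adjusted p of 0.0624, 0.0972 and 0.0916. The labels do not say whether replicate numbers pair the libraries. Same-numbered libraries correlated at -0.03, -0.08 and -0.25, and other pairs at -0.17 to 0.21. With 3 libraries per group these correlations cannot show whether a pairing exists. Without the low-count filter 5 were higher and 4 lower, and DESeq2 gave 4 and 4. Leaving out single libraries gave 1 to 9 higher genes, 0 to 7 lower genes and 0 to 8 partner genes. Without Zfhx3-CKO libraries 1 and 3 there were 9 lower genes, and the summed Pcdha and Pcdhg ratios were -0.23 and -0.30. Of 354 values over the 26 named genes and all settings, 313 kept direction and side of the threshold, 12 passed it newly, 17 no longer passed and 12 changed sign, all of the last for genes that did not pass. Without libraries 1 and 3 those were Cdh4 (-0.04), Celsr2 (-0.02), Celsr3 (0.10), Pcdh10 (-0.15), Pcdh11x (-0.53), Pcdh19 (-0.39), Pcdhgb6 (-0.12) and Pcdhgc4 (-0.24). With single libraries left out, Pcdh10 ran from -0.05 to 0.23, Pcdh11x from -0.41 to 0.50 and Pcdh19 from -0.21 to 0.22, with Zfhx3-CKO library 3 out at the low end, and Pcdh19 was -0.05 without control library 3. The cause was not tested. A setting whose filter removes a gene gives it no value. Depth limits genes near 1 CPM, such as Cdh23.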
